A study of Arabidopsis thaliana with 42 samples.

Results

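The RNA of 9 genes of the cold and dehydration response was followed through the life of the Arabidopsis thaliana leaf: COR15A (AT2G42540), COR15B (AT2G42530), RD29A (AT5G52310), RD29B (AT5G52300), COR47 (AT1G20440), ERD10 (AT1G20450), KIN1 (AT5G15960), KIN2 (AT5G15970) and RAB18 (AT5G66400). They were taken by gene identifier from both total RNA tables, as 9 of 33604 genes and 14 of 41673 transcript models, and the models of a gene were summed. The rule uses identifiers and no values, but the genes were proposed with earlier results of these data known. All samples were leaves of wild-type plants, and the groups differ by leaf age. The labels give no treatment, plant accession, growth condition or time of harvest. Ages ran every 2 days from day 4 to day 30 after emergence, 14 in all, with 1 library per age in each of 2 sets. Days 4, 6 and 8 were taken as young, days 14, 16 and 18 as mature and days 26, 28 and 30 as old, with 6 libraries per stage.

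Plants that meet cold, drought or salt make hydrophilic proteins that protect membranes and enzymes as water is lost from the cell. Cold acts on these genes mainly through the CBF transcription factors, which bind the dehydration-responsive element, and drought through DREB2A and through abscisic acid. Abscisic acid binds its receptors, these block the clade A phosphatases, and the freed SnRK2 kinases switch on the ABF factors, which bind the ABRE element.

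The values were FPKM, fragments scaled to transcript length and library size, which give no read depth. Summed over genes they came to 331479 in the day 4 library of set 1, which also listed the fewest genes at 1 FPKM or more (13359), and to between 439949 and 484348 in the others. The labels describe the sets as biological replicates but not what was kept apart, so a p-value here is set against library-to-library spread, some of which may be technical. Tests were made on log2(FPKM + 1), a scale that understates the changes of low genes, over the 18239 genes that reached 1 FPKM in 2 or more libraries, and a gene was called at an adjusted p under 0.05. All 9 genes passed that filter, but RD29B passed it through only 2 libraries, both old, so it had to be high there. Its values are therefore given with no test, and calls are counted over the other 8. KIN1 reached 1 FPKM in 18 libraries, none of them young, and the other 7 genes in all 28. In whole leaves, fewer cells of a type and less RNA per cell cannot be told apart.

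From the young to the mature leaf 7 of the 8 genes rose: RD29A, COR47, COR15A, KIN2, ERD10, KIN1 and COR15B. Their differences lay between 0.67 and 1.91 on the log2(FPKM + 1) scale, RAB18 (0.58) was not called, and no gene was lower. Of all genes tested, 51.6% were higher and 16.7% lower in the same comparison. The median difference was 1.404 for the 8 genes and 0.32 for all genes. For 6 of the 8 the lowest mature library lay above the highest young library, as for 32.5% of all genes.

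**Figure D1:**
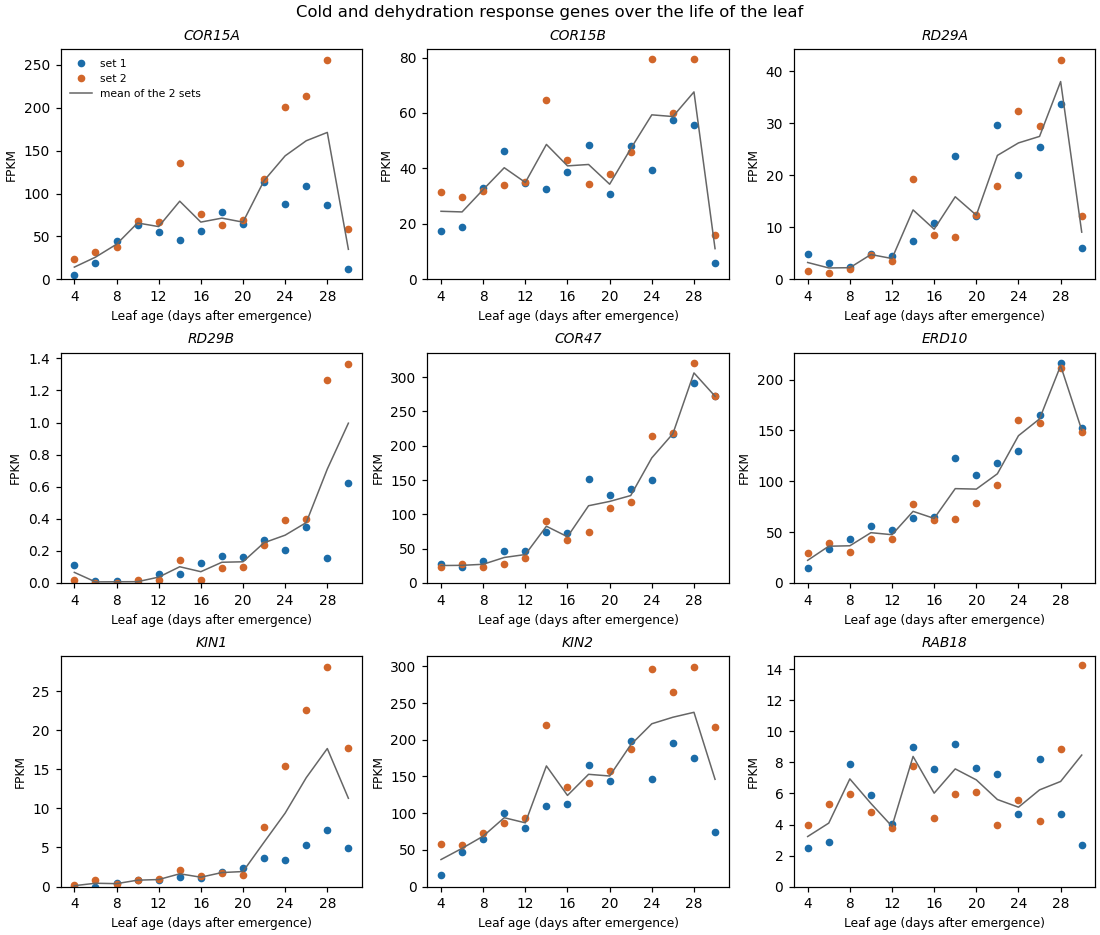
FPKM of the 9 genes (vertical axes, linear and different in each panel) against leaf age in days after emergence. Points are single libraries, coloured by set, and the line joins the means of the 2 libraries of each age. COR47 and ERD10 have their highest means on day 28. Their sets lie apart on day 18, at 151 and 73.8 FPKM for COR47 and 123 and 62.4 for ERD10. COR15A, COR15B and RD29A are low again at day 30.

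Among the dehydrins, proteins without fixed structure that bind membranes and water, COR47 and ERD10 gave the clearest course. COR47 ranged over the young libraries from 22.6 to 32.0 FPKM with a median of 25.6, over the mature libraries from 62.4 to 151 with a median of 74.4, and over the old libraries from 217 to 321 with a median of 272. The 3 stages did not overlap, and the mean FPKM rose from 26.2 ± 3.58 to 87.6 ± 32.6 and 265 ± 41.1 (SD, n = 6 each). The difference in log2(FPKM + 1) was 1.65 ± 0.15 (SE) from young to mature (adjusted p = 5.42e-08) and 1.64 ± 0.15 from mature to old (adjusted p = 2.21e-08).

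ERD10, an acidic dehydrin named for its early response to dehydration, lay between 15.2 and 43.0 FPKM with a median of 31.6 in the young leaf, between 62.3 and 123 with a median of 64.1 in the mature leaf, and between 148 and 216 with a median of 161 in the old leaf. Its stages did not overlap either. It rose by 1.25 ± 0.17 (log2, SE) into the mature stage (adjusted p = 4.34e-06) and by 1.23 ± 0.17 into the old stage (adjusted p = 2.97e-06). Both genes rose in each step in both sets. From young to mature COR47 differed by 1.73 in set 1 and 1.57 in set 2, and ERD10 by 1.48 and 1.02. From mature to old COR47 differed by 1.45 in set 1 and 1.82 in set 2, and ERD10 by 1.13 and 1.33.

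RAB18, a dehydrin known for its response to abscisic acid, showed no difference with age that passed the test. Its libraries ranged from 2.46 to 7.92 FPKM with a median of 4.66 when young, from 4.44 to 9.19 with a median of 7.70 when mature, and from 2.69 to 14.3 with a median of 6.46 when old. The stages overlapped throughout. Over all 14 ages its adjusted p was 0.561, and the other 7 of the 8 genes changed with age in the same F test, in which 91.0% of all genes changed. The old RAB18 libraries went opposite ways in the 2 sets: against the mature mean of the same set, the difference in log2(FPKM + 1) was -0.73 in set 1 and 0.41 in set 2. The highest RAB18 value of the series, 14.3 FPKM, was the day 30 library of set 2, while day 30 of set 1 held 2.69. Without the day 30 libraries RAB18 was called higher in the mature than in the young leaf (0.58, adjusted p = 0.0164).

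COR15A and COR15B encode small proteins of the chloroplast stroma that stabilise the inner envelope against freezing. COR15A had 27.9 FPKM as its young median (5.08 to 44.3), 70.3 as its mature median (46.1 to 136) and 97.7 as its old median (11.5 to 256). The mature libraries all lay above the young ones, and the old libraries spanned both. The rise into the mature stage was 1.62 ± 0.30 (log2, SE; adjusted p = 0.000121). From mature to old COR15A differed by 0.23 ± 0.30 (adjusted p = 0.486), with a log2 difference of -0.28 in set 1 and 0.75 in set 2. In set 1 the mean FPKM went the other way from the mean log2 value, from 60.6 to 69.0. One of its 3 transcript models, the second, held 98.7% of the summed FPKM.

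COR15B had 30.6 FPKM as its young median (17.6 to 32.8), 40.9 as its mature median (32.7 to 64.7) and 56.5 as its old median (6.03 to 79.4). Here the lowest mature library lay just under the highest young one. It rose by 0.67 ± 0.20 (log2, SE; adjusted p = 0.00649) from young to mature, and after quantile normalization of the libraries this was no longer called (0.33, adjusted p = 0.123). From mature to old it differed by -0.30 ± 0.20 (adjusted p = 0.184), although its mean FPKM was 43.7 mature and 45.8 old. After quantile normalization this was called lower (-0.55, adjusted p = 0.0116). Both COR15 comparisons with the old stage depended on day 30: without it, COR15A was higher in the old than in the mature leaf by 1.06 (adjusted p = 0.00473) and COR15B by 0.55 (adjusted p = 0.0246).

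RD29A and RD29B are neighbours whose promoters are textbook cases, RD29A with dehydration-responsive elements and ABRE and RD29B chiefly with ABRE. RD29A went from a young median of 2.25 FPKM (1.31 to 4.96) to a mature median of 9.64 (7.45 to 23.7) and an old median of 27.5 (6.01 to 42.2). Mature and young libraries were apart, and old and mature libraries overlapped. Among the 8 genes tested its rise into the mature stage had the highest estimate, 1.91 ± 0.28 (log2, SE; adjusted p = 9.70e-06). It rose again by 0.78 ± 0.28 into the old stage (adjusted p = 0.0165). That second call was lost after quantile normalization (0.51, adjusted p = 0.182) and when any of 3 libraries was left out: day 14 of set 1 (0.54, adjusted p = 0.0830), day 18 of set 2 (0.55, adjusted p = 0.0814) or day 30 of set 2 (0.60, adjusted p = 0.0717).

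RD29B stayed far lower. It lay between 0 and 0.112 FPKM with a median of 0.0147 in the young leaf, between 0.0165 and 0.167 with a median of 0.108 in the mature leaf, and between 0.156 and 1.37 with a median of 0.513 in the old leaf. Young and old libraries did not overlap, and the lowest old value lay within the mature range. The difference in mean log2(FPKM + 1) from mature to old was 0.29 in set 1 and 0.86 in set 2. Days 28 and 30 held 1.26 and 1.37 FPKM in set 2, the values that let the gene into the test, against 0.156 and 0.624 in set 1.

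KIN1 and KIN2 encode near-identical small hydrophilic proteins, and the 2 genes lie side by side, so the split of fragments between them is uncertain. KIN2 was abundant throughout, with medians of 57.4 FPKM (15.9 to 73.0) young, 138 (109 to 219) mature and 207 (74.8 to 300) old. It rose by 1.56 ± 0.23 (log2, SE) into the mature stage (adjusted p = 1.05e-05) and differed by 0.39 ± 0.23 between mature and old (adjusted p = 0.124), or by 0.67 without day 30 (adjusted p = 0.0174).

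KIN1 was scarce until late. Its young libraries lay between 0 and 0.860 FPKM with a median of 0.266, its mature libraries between 1.04 and 2.07 with a median of 1.55, and its old libraries between 4.93 and 28.1 with a median of 12.4. No stages overlapped. KIN1 rose by 0.98 ± 0.30 (log2, SE) from young to mature (adjusted p = 0.00774), a call lost at a pseudocount of 5 (0.30, adjusted p = 0.230). It rose by 2.32 ± 0.30 from mature to old (adjusted p = 1.48e-06). The late rise was 1.53 in set 1 and 3.11 in set 2, and the old libraries of set 1 held 4.93 to 7.24 FPKM against 17.7 to 28.1 in set 2.

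From the mature to the old leaf 4 of the 8 genes rose, namely KIN1, COR47, ERD10 and RD29A, and none was lower. Of all genes 48.3% were higher and 27.1% lower, so the count of higher genes is near the background. Without the 697 genes that, like RD29B, passed the filter only through old libraries, 46.6% were higher. For 3 genes, COR47, ERD10 and KIN1, the old libraries all lay above the mature ones, as for 32.7% of all genes. The medians were 0.59 for the 8 genes and 0.26 for all genes. Without the day 30 library of set 2 RD29A lost its call and 3 genes were called higher, and COR15B (-0.47, adjusted p = 0.0420) and RAB18 (-0.52, adjusted p = 0.0404) were called lower.

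Between the ends of leaf life 6 of the 8 genes were higher in the old leaf and none lower, against 60.0% and 25.5% of all genes. For 5 of them the old libraries all lay above the young ones (43.3% of all genes). KIN1 (3.30 ± 0.30) and COR47 (3.29 ± 0.15) had the highest differences, RD29A followed at 2.70 ± 0.28 and ERD10 at 2.48 ± 0.17, and KIN2 (1.96 ± 0.23) and COR15A (1.86 ± 0.30) came next (log2, SE). COR15B (0.37, adjusted p = 0.0895) and RAB18 (0.42, adjusted p = 0.166) were not called. Without day 30 COR15B was called higher (1.22, adjusted p = 2.88e-05), as it was at a pseudocount of 5 (0.39, adjusted p = 0.0432). After quantile normalization COR15B was at -0.22 and RAB18 at -0.18, neither called. Leaving out 1 library gave 0.20 to 0.55 for COR15B and 0.0606 to 0.79 for RAB18, with both upper ends without the day 30 library of set 1. Calls over all genes leaned to higher levels, and this depended on the scaling. Quantile normalization moved the median of all genes from 0.32 to 0.0300 for mature against young, from 0.26 to 0.0412 for old against mature and from 0.59 to 0.0874 for old against young. The share of calls that were higher then went from 75.5% to 53.0%, from 64.1% to 52.2% and from 70.2% to 53.1%. The 8 genes gave 6, 3 and 6 higher calls on that scale.

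**Figure D2:**
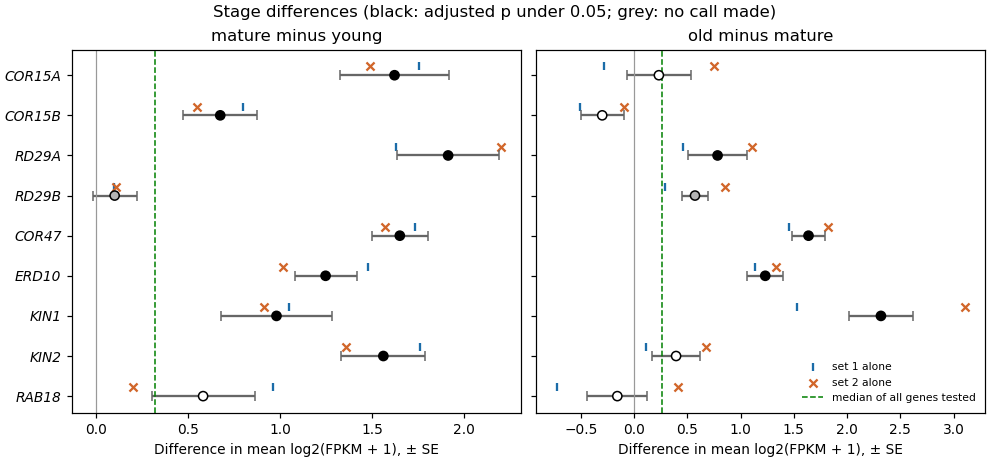
Difference in mean log2(FPKM + 1) between mature and young leaves (left) and between old and mature leaves (right) for each gene. Circles with bars are the fitted difference ± SE, black where the adjusted p is under 0.05, open where it is not and grey for RD29B, for which no call was made; bars and crosses above them are set 1 and set 2 alone, and the dashed line is the median of all genes tested (0.32 and 0.26). In the right panel set 1 and set 2 lie on opposite sides of 0 for COR15A and RAB18.

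Ordered by mean FPKM, the ages of 7 genes had day 28 at the top: 306 for COR47, 237 for KIN2, 214 for ERD10, 171 for COR15A, 67.6 for COR15B, 38.0 for RD29A and 17.7 for KIN1. RD29B (0.996) and RAB18 (8.47) had day 30 at the top. The lowest age was day 4 in 6 genes, day 6 in RD29A and RD29B, and day 30 in COR15B. Most neighbours in these orders could not be told apart by their 2 libraries. Of 13 neighbouring places the libraries did not overlap in 6 for COR47 and ERD10, in 4 for KIN1 and RD29A, in 3 for KIN2, in 2 for COR15B and RD29B, in 1 for COR15A and in none for RAB18. In COR47 the highest ages were days 28, 30, 26, 24 and 22, and no neighbours among these overlapped.

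Step by step, a single interval moved any of these genes past the test, the last one. Between day 28 and day 30 COR15B fell from 55.8 to 6.03 FPKM in set 1 and from 79.4 to 16.1 in set 2. COR15A fell from 86.5 to 11.5 and from 256 to 58.5, and RD29A from 33.8 to 6.01 and from 42.2 to 12.1. All 6 falls were severalfold and in the same direction. On the log2(FPKM + 1) scale they were -2.62 ± 0.35 for COR15B (adjusted p = 2.69e-05), -2.46 ± 0.52 for COR15A (adjusted p = 0.00166) and -2.01 ± 0.48 for RD29A (adjusted p = 0.00423). The median of all genes was -0.18 in this step, with 21.8% of them lower and 9.01% higher. Without the day 30 library of set 1 the COR15A value was -1.66 (adjusted p = 0.0605) and the RD29A value -1.46 (adjusted p = 0.0939).

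The other genes did not pass in that step. KIN2 was at 175 and 300 FPKM on day 28 and at 74.8 and 217 on day 30 (-0.84, adjusted p = 0.118), and ERD10 at 216 and 211 and then at 153 and 148 (-0.50, adjusted p = 0.206). COR47 was at 291 and 321 and then at 272 in both sets (-0.17, adjusted p = 0.685). KIN1 (-0.56) and RAB18 (0.00396) were not called either. After quantile normalization ERD10 (-0.83, adjusted p = 0.00712) and KIN2 (-1.25, adjusted p = 0.0102) were also called lower. In the other 12 steps no member was called. Those steps called few genes of any kind: 11.4% of all genes between days 4 and 6 and 8.38% between days 26 and 28, and in order of age 0.0110%, 0.137%, 0.0110%, 0.00548%, 0%, 0.0713%, 0.0219%, 0.658%, 1.03% and 0.285% in the 10 steps between.

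CBF1, CBF2 and CBF3 also fell between day 28 and day 30, a step in which 21.8% of all genes were lower and 9.01% higher. CBF1 stood at 7.08 and 7.99 FPKM on day 28 and at 0.903 and 2.32 on day 30, CBF2 at 10.6 and 13.1 and then at 1.77 and 3.83, and CBF3 at 17.5 and 16.5 and then at 3.74 and 7.51. Each library of day 30 was below both of day 28. The differences were -1.76 ± 0.32 for CBF1 (adjusted p = 0.000551), -1.81 ± 0.25 for CBF2 (adjusted p = 4.45e-05) and -1.50 ± 0.27 for CBF3 (adjusted p = 0.000415). DREB2A, the factor of the drought and heat response, went from 10.4 and 13.5 to 35.6 and 37.1 FPKM and rose by 1.54 ± 0.16 (adjusted p = 2.80e-06). Other factors of the response went either way, given here as values only. RAP2.1 went from 29.7 and 27.6 to 22.8 and 19.9 FPKM, and DEAR1 from 37.4 and 28.1 to 45.2 and 38.2. Of the ABF factors, ABF1 stood at 43.2 and 36.8 FPKM on day 28 and at 29.4 and 25.6 on day 30, each day 30 library below both of day 28 (-0.52 ± 0.22, adjusted p = 0.0864). ABF2 (-0.20), ABF3 (-0.0155) and ABF4 (0.0647) were not called either.

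Of other effectors in that step, RD20, a lipid-droplet caleosin of the drought response, stood at 254 and 341 FPKM on day 28 and at 497 and 631 on day 30 (0.92 ± 0.38, adjusted p = 0.0771). The dehydrin LTI30 stood at 25.0 and 42.8 and then at 16.4 and 47.4 (-0.22, adjusted p = 0.769). Time of harvest is not in the labels, so the genes of the circadian clock were read beside this. The summed FPKM of the 9 clock genes was 186 and 220 on day 28 and 193 and 205 on day 30. CCA1 held 26.6 and 39.7 and then 27.6 and 35.0, and PRR5 23.6 and 20.6 and then 32.3 and 31.1. Leaf identity genes summed to between 341 and 2700 FPKM in the old stage against 4766 to 6301 in the mature stage. By stage the clock sum was 44.3 to 105 FPKM young, 177 to 204 mature and 174 to 220 old. From young to mature 7 of the 8 clock genes tested rose and 1 fell, with a median of 0.88 (log2). Of all genes 51.6% rose and 16.7% fell in that comparison. From mature to old 4 clock genes rose and 2 fell, where 48.3% of all genes rose and 27.1% fell. The part of harvest time in the stage differences, and of harvest time or leaf decline in the falls, was not tested.

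**Figure D3:**
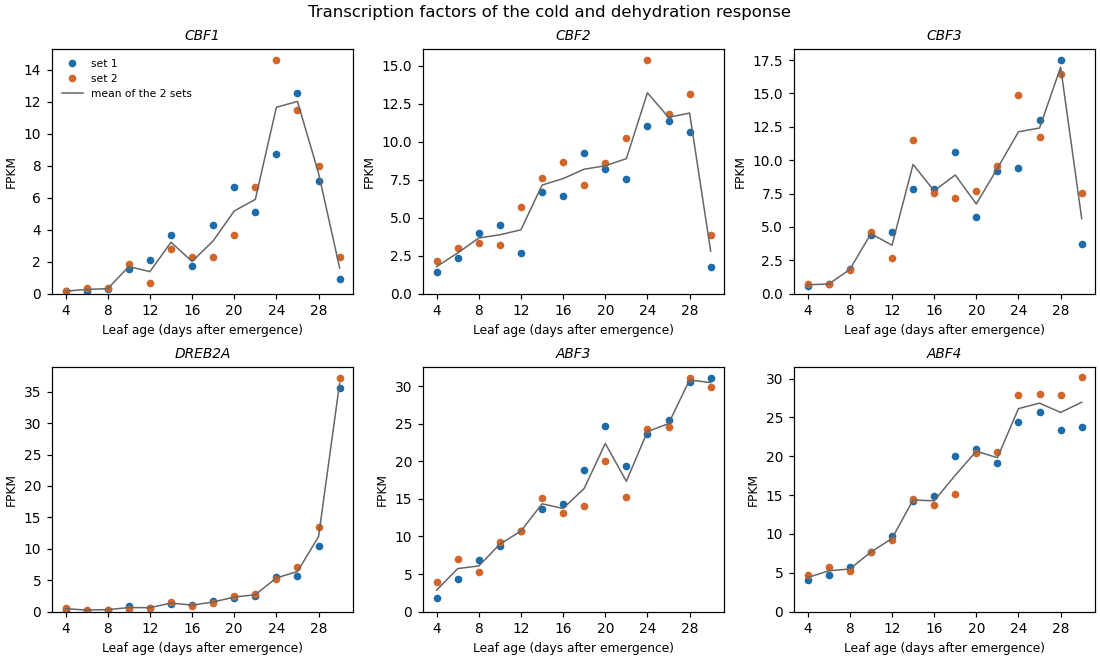
FPKM of CBF1, CBF2, CBF3, DREB2A, ABF3 and ABF4 (vertical axes, linear and different in each panel) against leaf age in days after emergence. Points are single libraries, coloured by set, and the line joins the means of the 2 libraries of each age. At day 30 the CBF genes are low again, DREB2A is at 35.6 and 37.1 FPKM, and ABF3 and ABF4 stay near their day 28 values.

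Each of the pairs COR15A/COR15B, RD29A/RD29B, COR47/ERD10 and KIN1/KIN2 consists of adjacent genes with 0 genes between them in the RefSeq annotation. The ratio of the 2 genes, as a difference of log2(FPKM + 1), was compared between stages by exact two-sided permutation within sets, with 400 arrangements, a smallest possible p of 0.005 and adjustment over the 12 comparisons. The COR15A/COR15B ratio moved towards COR15A: its log2 mean was -0.20 ± 0.74 young, 0.74 ± 0.22 mature and 1.28 ± 0.54 old (SD, n = 6 each). On day 4 COR15B was the higher gene in both sets (-1.61 and -0.41), and from day 6 COR15A was. All 3 stage differences passed the exact test (adjusted p = 0.012, 0.0171 and 0.012 for mature against young, old against mature and old against young). With libraries permuted without regard to set the middle one did not (adjusted p = 0.0857). At day 30, where both genes fell, the ratio was 0.83 in set 1 and 1.80 in set 2.

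RD29A/RD29B went from 1.72 ± 0.45 to 3.54 ± 0.59 and 3.75 ± 1.16 (log2 ratio, SD, n = 6 each). With RD29B at 0.167 FPKM or less in every young and mature library, the ratio there mostly restates RD29A, so it is given as a description with no test. Within the old stage the ratio was 4.91 and 4.25 on day 28 and 2.11 and 2.47 on day 30. It depends on the pseudocount: at 0.1 the difference between old and mature was -0.96, against 0.21 at 1.

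COR47/ERD10 had a log2 ratio of -0.21 ± 0.51 in the young, 0.19 ± 0.10 in the mature and 0.60 ± 0.21 in the old leaf (SD, n = 6 each). Mature against young did not pass the exact test (0.40, adjusted p = 0.104), while old against mature (0.41, adjusted p = 0.012) and old against young (0.81, adjusted p = 0.018) did. One young library set the first result: the ratio on day 4 was 0.81 in set 1 and -0.31 in set 2, the other young libraries lay between -0.48 and -0.40, and without that day 4 library of set 1 the difference was 0.61 and passed (exact permutation, adjusted p = 0.00857).

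KIN1/KIN2 was at -5.26 ± 0.64 young, -5.84 ± 0.18 mature and -3.91 ± 0.63 old (log2 ratio, SD, n = 6 each). The old leaf thus had more KIN1 relative to KIN2 than the mature leaf, by 1.92 (exact permutation, adjusted p = 0.012). Old against young differed by 1.34 (exact permutation, adjusted p = 0.018), a difference that turned to -0.16 at a pseudocount of 5. The negative difference between mature and young (-0.58, exact permutation, adjusted p = 0.018) comes with KIN1 at 0 in some young libraries and was 0.84 at a pseudocount of 0.1 (exact permutation, adjusted p = 0.08).

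**Figure D4:**
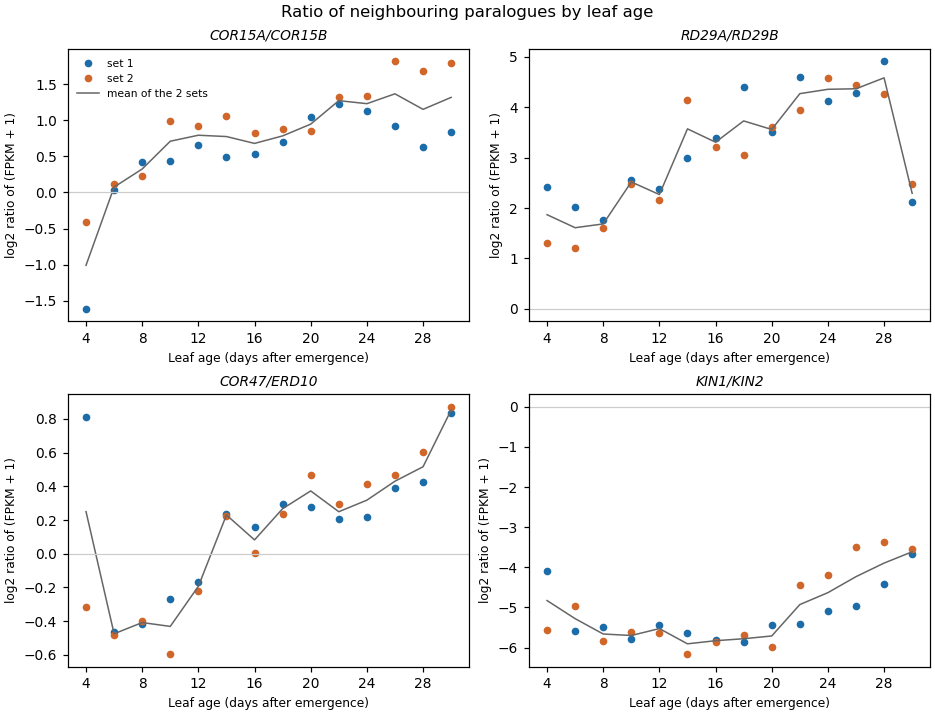
Log2 ratio of FPKM + 1 of the first over the second gene of each adjacent pair against leaf age in days after emergence. Points are single libraries, coloured by set, the line joins the means of the 2 libraries of each age, and the grey line marks equal levels. The RD29A/RD29B ratio drops at day 30 to 2.11 and 2.47, and the KIN1/KIN2 ratio is higher in the old leaf.

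At some ages the 2 libraries differed in the same direction for most of these genes, and at others they did not. The difference, taken as set 2 minus set 1 in log2(FPKM + 1), was positive for 8 of 9 genes on day 14, negative for all 9 on day 18 and positive for all 9 on day 24. It was also negative for 8 on day 8 and positive for 8 on day 28. On days 12, 16 and 20 it was positive for 4 and negative for 5, and at the other 6 ages 6 or 7 genes shared a sign. Of all genes, 42.4%, 52.9% and 45.3% were higher in set 2 on days 14, 18 and 24, and their median difference was between -0.0356 and 0.0202. The share was 34.1% on day 8 and 50.1% on day 28, so on day 8 most genes of any kind were lower in set 2. On days 12, 16 and 20 it was 44.9%, 37% and 42.8%. On day 4, where 6 of the 9 genes were higher in set 2, it was 86.2%. At the remaining ages it lay between 44.7% and 57.9%. On day 14 COR15A was at 46.1 FPKM in set 1 and 136 in set 2, on day 18 COR47 at 151 and 73.8 and ERD10 at 123 and 62.4, and on day 24 KIN1 at 3.37 and 15.4. The median absolute difference between sets over the 14 ages was 0.57 for COR15A, 0.54 for RAB18, 0.49 for RD29A, 0.46 for COR15B and 0.45 for KIN1, and lower for ERD10 (0.28), KIN2 (0.26), COR47 (0.23) and RD29B (0.0868). The median gene had 0.20.

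Other genes of the pathway moved with some of these differences. On day 18 all 7 clade A phosphatases tested were higher in set 1 (median -0.40). So were 7 of 8 SnRK2 kinases and ABF factors and 12 of 17 transcription factors of the response. On day 24 these lists were higher in set 2 in 6 of 7, 5 of 8 and 11 of 17 cases, and on day 14 in 6 of 7, 6 of 8 and 8 of 17. Of 19 other effectors, 15, 8 and 17 were higher in set 2 on days 14, 18 and 24, and 3, 10 and 1 in set 1. The shares of all genes higher in set 2 were 42.4%, 52.9% and 45.3% on those days. CBF3 was at 10.6 and 7.18 FPKM in set 1 and set 2 on day 18 and at 9.40 and 14.9 on day 24. Other factors went either way. On day 14 CBF1 (-0.29, set 2 minus set 1 in log2) and ABF2 (-0.26) were higher in set 1. CBF2, CBF3, DREB2A, ABF3 and ABF4 were higher in set 2 on that day. On day 24 ABF2 (-0.15) and DREB2A (-0.0748) were higher in set 1, and CBF1, CBF2, ABF3 and ABF4 in set 2. On day 18 all of these factors were higher in set 1. Of the 9 abscisic acid receptors, 5 were higher in set 2 on day 18 and 5 in set 1 on day 24. Clock genes differed too. PRR5 was at 9.02 and 16.9 FPKM on day 14 and at 5.96 and 14.7 on day 24, and LHY at 39.7 and 26.8 on day 14 and at 42.0 and 56.3 on day 18. Of the 8 clock genes tested, 5, 3 and 7 were higher in set 2 on days 14, 18 and 24. Leaf identity genes were higher in set 2 in 4 of 4 cases on each of these days. Whether harvest, growth conditions or other differences between the sets play a part was not tested.

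**Figure D5:**
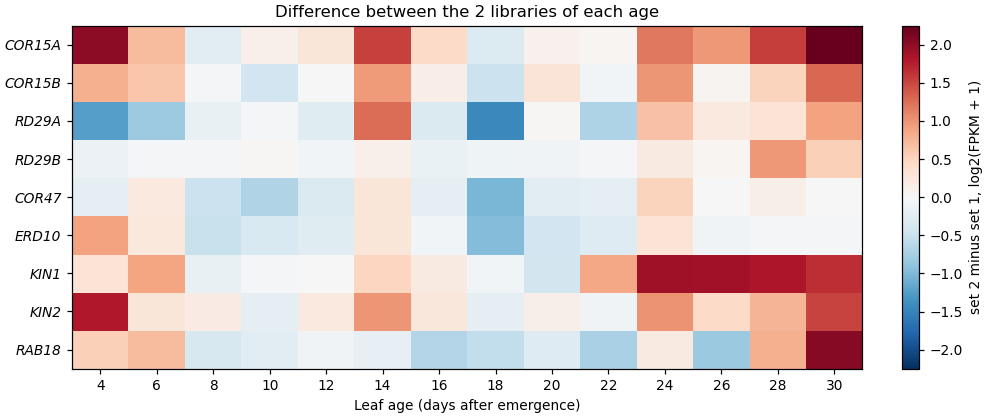
Set 2 minus set 1 in log2(FPKM + 1) for each gene (rows) at each leaf age in days after emergence (columns); red is higher in set 2 and blue higher in set 1. Day 14 is red in 8 of 9 rows, day 18 is blue in all 9 and day 24 is red in all 9.

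The regulators were described by gene lists chosen, like the 9 genes, with earlier results of these data known. Among 18 transcription factors of the response, 17 were tested, 11 rose and 1 fell in each of the 2 stage steps, and their medians were 0.48 and 0.96 (all genes 0.32 and 0.26). Of all genes 51.6% rose and 16.7% fell in the first step, and 48.3% rose and 27.1% fell in the second, which are the shares to set beside each list here. CBF3 rose by 2.26 ± 0.15 into the mature leaf, DEAR1, a DREB-type repressor, by 1.69 ± 0.13 and CBF1 by 1.59 ± 0.19 (log2, SE). CBF2 rose by 1.25 ± 0.15. From mature to old DEAR1 rose by 2.97 ± 0.13, DREB2A by 2.73 ± 0.0945, the zinc finger factor ZAT12 by 2.65 ± 0.22 and CBF1 by 0.80 ± 0.19, while CBF2 (-0.0312, adjusted p = 0.851) and CBF3 (0.26, adjusted p = 0.134) were not called. ICE2, an activator upstream of the CBF genes, fell by 0.79 and then by 1.38 (adjusted p = 0.000174 and 1.81e-07).

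On the abscisic acid side, all 7 clade A phosphatases tested rose in both steps, with medians of 1.16 and 1.94, where 51.6% and 48.3% of all genes rose. HAI2 rose by 1.44 ± 0.13 and then by 2.61 ± 0.13, and HAI1 by 1.16 ± 0.15 and then by 4.61 ± 0.15 (log2, SE). Of 8 SnRK2 kinases and ABF factors tested, 7 rose in each step. ABF3 went from 4.88 ± 1.98 FPKM young to 14.8 ± 2.06 mature and 28.8 ± 2.96 old, and ABF4 from 5.04 ± 0.67 to 15.4 ± 2.31 and 26.5 ± 2.68 (SD, n = 6). ABF2 rose by 0.65 ± 0.13 and by 0.41 ± 0.13. The 9 receptors were mixed, with 4 higher (44.4%) and 2 lower (22.2%) in each step, and the share of higher genes was below that of all genes in both: PYL9 rose by 1.47 and 0.78 and PYL4 fell by 0.68 and 1.27.

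Of 9 other late embryogenesis abundant and dehydrin genes tested, EM6, LEA4-5, LEA7 and XERO1 reached the filter only through old libraries and are not counted. Of the other 5, all rose into the mature stage, and 4 rose and 1 fell into the old stage (51.6% and 48.3% of all genes rose). ERD14, a close relative of ERD10, went from 92.8 ± 16.3 FPKM to 248 ± 48.1 and 450 ± 64.3 (SD, n = 6), and LTI30 from 0.701 ± 0.413 to 2.33 ± 1.35 and 30.5 ± 12.9. LTI30 rose by 0.90 ± 0.26 and then by 3.23 ± 0.26 (log2, SE). Of 19 other effectors 14 rose and 1 fell in the first step. In the second 10 rose (52.6%) and 4 fell (21.1%), near the 48.3% and 27.1% of all genes. The chloroplast membrane protein COR413IM1 rose by 2.45 ± 0.21 in the first step. In the second step RD20 rose by 3.67 ± 0.22, and RD22, a dehydration gene reached through MYC and MYB factors, fell by 3.28 (from 210 ± 17.1 to 28.9 ± 20.5 FPKM). ERD1, a chloroplast Clp chaperone, rose from 101 ± 17.8 to 504 ± 224 FPKM in that step (SD, n = 6; adjusted p = 2.54e-10). P5CS1, which makes proline, rose by 1.44 ± 0.23 and then fell by 1.77.

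Markers of other tissues were read beside these results. All 5 seed storage and oil body markers were at 0 in the 3 old libraries of set 1 and lay between 0.772 and 3.75 FPKM, with a sum of 10.5, in the day 30 library of set 2. That library also held the highest RAB18 and RD29B of the series and 19.5 FPKM of the seed protein EM6, against 4.203 in day 30 of set 1. EM6 lay between 0.379 and 0.727 FPKM on days 26 and 28 of set 1, and between 2.42 and 4.77 in set 2. The sum of 4 guard cell markers was 9.07 to 20.2 FPKM young, 7.71 to 13.1 mature and 11.7 to 45.9 old. KAT1 alone averaged 3.77 FPKM mature and 15.7 old. From young to mature FAMA (-0.91, log2) and MYB60 (-0.44) fell, and KAT1 and SLAC1 were not called. From mature to old KAT1 (1.59), FAMA (0.52) and SLAC1 (0.47) rose and MYB60 (-0.53) fell. The sum of 5 vascular markers was 92.8 to 213 young, 190 to 249 mature and 110 to 154 old. SUC2 alone averaged 137, 197 and 107 FPKM in these stages. From young to mature SUC2 (0.57, log2) and APL (0.47) rose, and XCP1 (-2.24), IRX5 (-1.67) and IRX3 (-1.37) fell. From mature to old APL (0.84) rose and the other 4 fell. Of 7 touch and heat shock genes the sum was 162 to 555 young, 89.3 to 168 mature and 165 to 230 old. The sums on days 4 and 6 were 555 and 542 in set 2 against 209 and 189 in set 1. Over these stages TCH3 averaged 154, 79.6 and 113 FPKM, TCH4 109, 16.4 and 7.58, and HSP70 1.38, 4.45 and 44.0. The 4 leaf identity genes, which define the labelled tissue, summed to 6384 to 8792 FPKM in the young leaf. The senescence protease SAG12 was at 0 to 0.126 FPKM young, 0 to 3.29 mature and 126 to 3134 old. The part of these tissues in the results above was not tested.

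Nearness of pattern was measured by Pearson's r of log2(FPKM + 1) over the 28 libraries, which share the course of age. The genes nearest to the mean standardized profile of the 9 were AT3G27220 (r = 0.946), AT1G16850 (0.930), AT1G21680 (0.930), SD1-29 (0.930) and the zinc transporter gene ZIP4 (0.929). AT1G16850 went from 0.451 to 1.67 and 5.41 FPKM over young, mature and old leaves, and AT1G21680 from 25.1 to 68.6 and 116. Gene by gene, the nearest was COR413IM2 for COR15A (0.922), BTI3 for COR15B (0.873) and AT1G27200 for RD29A (0.941). For COR47 it was the clock-related gene ELF4-L1 (0.982), for ERD10 the calmodulin gene CAM4 (0.979), for KIN1 LTI30 (0.954) and for KIN2 AT1G78890 (0.952). No nearest gene is given for RD29B, which passed the filter only through old libraries, though it is part of the mean profile. RAB18 had no neighbour as close: its nearest was AT2G45820 (0.715).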

How the data were processed

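Total RNA of 28 leaf libraries was analysed, and the small RNA libraries were not used here. FPKM per transcript model were made by the authors and deposited separately for each set; the submitters' processing notes name TopHat 1.4.0, Cufflinks and TAIR10. The annotation release and any strand setting are not given in the sources used here. FPKM of the models of a gene were summed, and log2(FPKM + 1) was fitted with limma 3.58.1 (trend) in R 4.3.3, with day as a factor and set as a block, over the 18239 genes that reached 1 FPKM in 2 or more libraries. Benjamini-Hochberg adjustment ran over all of them. Sets come from the labels and the separate tables; deviations from the day means correlated over 0.1 in 66 of 91 pairs of days within a set (median 0.226). The R package data.table (version 1.17.8), Python 3.11.15, numpy 2.4.6, pandas 2.3.3 and matplotlib 3.10.9 were used, and the fit was tested on simulated data. The members, stages and lists were chosen with earlier results of these data known. Counts without the genes that passed the filter only through old libraries were added after the data were seen. Genes named are the members, up to 3 rises and 3 falls with the largest change per list and step, CBF1, CBF2, CBF3, DREB2A, ABF2, ABF3 and ABF4, and the genes nearest in pattern; the genes named for days 28 and 30 and for the sets were picked after their values were seen. RefSeq names (TAIR10.1) matched 32835 of 33604 genes; no coordinates were used. Alternatives were 2 pseudocounts, 2 filters, quantile normalization, no block, no day 4, no day 30, the first model only and each library left out.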

Additional observations from a re-analysis of the deposited data

Results flagged for a closer look

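In 4 of 27 groups of 6 libraries (9 genes in 3 stages) 1 library stood apart. Its gap to its nearest neighbour, relative to the range of the group, was past the 95% critical value of Dixon's test. That test flags about 1 in 20 groups of independent normal values. Here each group mixes 3 ages and the groups share libraries, so that rate is not the one to set beside the 4 of 27. The day 14 library of set 2 had 136 FPKM of COR15A, and the other mature libraries had 46.1 to 78.9. The day 18 library of set 1 had 151 FPKM of COR47 against 62.4 to 90.4 in the other mature libraries, and 123 FPKM of ERD10 against 62.3 to 77.3. The day 4 library of set 1 had 0.112 FPKM of RD29B, and the other young libraries had 0 to 0.0204. These RD29B values are all far below 1 FPKM, the gene passed the filter only through old libraries, and that library had the lowest summed FPKM. COR15A was not apart on day 18, nor were COR47 and ERD10 on day 14.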

How the results depend on the processing

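On the log2 scale, the calls of COR47 and ERD10 in the 3 stage comparisons, of KIN1 from mature to old and of COR15B from day 28 to day 30 stayed on the same side of the threshold in every alternative that could be fitted. The RD29A/RD29B ratio is given here as values only. Pseudocount 0.1 gave -0.96 for RD29A/RD29B old minus mature, 0.67 for old minus young, 0.84 for KIN1/KIN2 mature minus young and -0.0479 for RAB18 from day 28 to day 30. Pseudocount 5 gave -0.16 for KIN1/KIN2 old minus young (1.34 at pseudocount 1) and 0.0378 for CBF2 old minus mature. Quantile normalization gave 6176 genes higher and 5479 lower for mature minus young and 7079 lower for old minus young, called 1 member, COR15B, lower for old minus mature and 5 member falls over the steps, and gave -0.0414 for RD29B mature minus young, -0.22 for COR15B and -0.18 for RAB18 old minus young, and 0.0345 for ABF2 and 0.0539 for ABF3 from day 28 to day 30. Fitted without the replicate block, COR15A/COR15B old minus mature kept its value of 0.53 and lost its call, and no other call changed. Without day 4, COR47/ERD10 mature minus young was 0.63 and called, and KIN1/KIN2 was -0.37 and not called. Without day 30, COR15B old minus mature was 0.55, CBF2 was 0.57, both called, and RD29A/RD29B was 0.94, COR47/ERD10 old minus young was 0.68 and not called, and the member falls were 0, since that step was gone. With only the first transcript model, which holds 1.28% of COR15A, COR15A/COR15B was -0.54 for mature minus young and 0.71 for old minus young, neither called, and 1 member rise appeared in a step. The causes were not tested unless given here.

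Leaving out each library in turn gave ranges. Counting RD29B where it was tested, for old minus mature 3 to 6 members were higher and 0 to 2 lower. RD29B passed the filter only through old libraries, which favours a higher call, so no conclusion is drawn from the upper end. On that base the main fit had 5 of 9 higher, against the 4 of 8 counted above without RD29B. In the same comparison values ran from -0.0336 to 0.50 for COR15A, from -0.52 to 0.21 for RAB18 and from -0.13 to 0.0715 for CBF2. Over the steps there were 0 to 3 member rises and 1 to 4 member falls, 3 rises without the day 4 library of set 2 and 1 fall without the day 30 library of set 1, each of which leaves 1 library at an age, taken to vary like the others. Without the day 28 library of set 1 there was 1 rise. From day 28 to day 30 RD29B ran from -0.19 to 0.52, KIN1 from -1.17 to 0.0612, RAB18 from -1.08 to 1.09, LTI30 from -0.75 to 0.32, ABF3 from -0.0486 to 0.0176 and ABF4 from -0.0881 to 0.22. RD29A/RD29B old minus mature ran from -0.0736 to 0.63, COR47/ERD10 mature minus young from 0.29 to 0.61 and KIN1/KIN2 mature minus young from -0.72 to -0.34, with the last not called without 6 of the libraries. The number of sets limits the precision, and FPKM gives no depth.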
